A study of Mus musculus with 6 samples.

Results

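The genes described here make sterols and fatty acids, move and store sterols, or regulate that synthesis. They are 34 of the 54532 genes in the deposited table, chosen by name: 18 enzymes of sterol synthesis, 5 regulators, 4 genes of sterol transport and storage and 7 enzymes of fatty acid synthesis. The study sequenced RNA of mouse macrophages grown from bone marrow, in 3 libraries that carry the label Tet2 knockout and 3 that carry the label wild-type. All 6 libraries came from cells treated with MSU, which in work on gout stands for monosodium urate, so no untreated cells enter the comparison. Tet2 codes for a dioxygenase that acts on methylated cytosine in DNA, and the series' title places the work in clonal hematopoiesis with TET2 mutations and the risk of gout. The sources used here do not give the knockout allele, its driver, the strain, the age of the mice or the dose and duration of MSU.

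Cells make cholesterol from acetyl-CoA through mevalonate, farnesyl diphosphate, squalene and lanosterol. The transcription factor SREBP-2, encoded by Srebf2, drives these enzymes, and SREBP-1, encoded by Srebf1, drives the synthesis of fatty acids. Both precursors are held in the endoplasmic reticulum by Scap and the Insig proteins when sterols are plentiful, and Scap escorts them to the Golgi for cleavage when sterols are scarce. In macrophages the pathway is known to respond to cholesterol taken up from outside and to inflammatory stimuli.

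The promoters of 5 members are shown so that the short sequences usually linked to sterol and fatty acid genes can be seen in place: Hmgcs1, Msmo1 and Srebf2 are the members whose window held the letters TCACNCCA, Insig1 is a feedback regulator, and Fasn stands for the fatty acid enzymes. Each window runs 5′ to 3′ on the gene's strand from 250 bases before the start to 50 bases after it and is taken from RefSeq (GRCm38.p6). Capitals mark matches, on either strand, to TCACNCCA (a core of the sterol regulatory element), CACGTG (the E-box), CCAAT and GGGCGG. The windows lie at chr13:119690101-119690400 for Hmgcs1 (plus strand), chr8:64733529-64733828 for Msmo1 (minus strand), chr15:82147019-82147318 for Srebf2 (plus strand), chr5:28071162-28071461 for Insig1 (plus strand) and chr11:120824498-120824797 for Fasn (minus strand).
Hmgcs1: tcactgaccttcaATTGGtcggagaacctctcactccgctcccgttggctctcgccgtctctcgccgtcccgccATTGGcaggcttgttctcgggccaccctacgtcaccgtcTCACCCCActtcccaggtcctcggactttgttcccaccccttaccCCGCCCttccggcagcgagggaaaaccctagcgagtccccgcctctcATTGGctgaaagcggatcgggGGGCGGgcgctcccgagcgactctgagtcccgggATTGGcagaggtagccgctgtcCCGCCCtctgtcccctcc
Msmo1: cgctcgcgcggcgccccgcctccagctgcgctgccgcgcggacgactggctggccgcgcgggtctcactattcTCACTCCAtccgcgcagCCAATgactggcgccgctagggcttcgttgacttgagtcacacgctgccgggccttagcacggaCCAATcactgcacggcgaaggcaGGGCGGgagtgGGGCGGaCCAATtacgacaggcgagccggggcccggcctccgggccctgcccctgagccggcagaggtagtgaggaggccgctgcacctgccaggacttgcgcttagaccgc
Srebf2: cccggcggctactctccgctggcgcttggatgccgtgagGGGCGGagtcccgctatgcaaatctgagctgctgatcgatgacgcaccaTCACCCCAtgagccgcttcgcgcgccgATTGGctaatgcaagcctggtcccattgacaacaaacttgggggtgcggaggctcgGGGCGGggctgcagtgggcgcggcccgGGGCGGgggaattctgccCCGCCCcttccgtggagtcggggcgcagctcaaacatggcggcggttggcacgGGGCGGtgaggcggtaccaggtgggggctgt
Insig1: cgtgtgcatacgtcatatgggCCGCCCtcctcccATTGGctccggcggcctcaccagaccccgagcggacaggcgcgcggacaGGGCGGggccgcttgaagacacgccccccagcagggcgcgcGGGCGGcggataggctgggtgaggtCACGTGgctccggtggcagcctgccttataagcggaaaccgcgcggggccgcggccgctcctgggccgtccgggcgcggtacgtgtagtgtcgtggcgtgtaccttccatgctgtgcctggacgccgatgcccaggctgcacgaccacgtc
Fasn: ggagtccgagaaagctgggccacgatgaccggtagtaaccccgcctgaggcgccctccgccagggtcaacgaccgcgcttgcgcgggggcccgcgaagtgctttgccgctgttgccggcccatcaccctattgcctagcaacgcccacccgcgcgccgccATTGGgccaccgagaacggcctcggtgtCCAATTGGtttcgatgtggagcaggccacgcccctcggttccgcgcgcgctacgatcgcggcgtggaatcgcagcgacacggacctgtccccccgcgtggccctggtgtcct

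The letters TCACNCCA began 137 bases upstream of the start in Hmgcs1, 177 bases in Msmo1 and 162 bases in Srebf2. In the Insig1 window CACGTG began 101 bases upstream of the start. The longest run of capitals in the Fasn window is a pair of overlapping CCAAT matches on opposite strands, and that window held no match to GGGCGG. RefSeq windows were found for 27 of the 34 members, and those without an entry were Fdps, Fdft1, Sqle, Scd1, Scd2, Stard4 and Npc1. TCACNCCA was in a window of 3 of these 27 members (11.1%), against 4.6% of 9788 tested genes with a promoter entry and 4.36% of all 32851 windows. CACGTG was in 5 of 27 members (18.5%), namely Dhcr7, Hsd17b7, Insig1, Sc5d and Scap, against 11.9% of tested genes and 7.15% of all windows. CCAAT was in 23 of 27 members (85.2%), against 43% of tested genes and 37.41% of all windows, and GGGCGG was also in 23 of 27, against 69% and 35.66%. By arm, CCAAT was in 14 of 15 sterol enzymes, 4 of 5 regulators, both transport genes with an entry and 3 of 5 fatty acid enzymes. Some genes have several windows, so the shares of genes and of windows count different things, and a match of letters is a description of the window.

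Libraries held 11997104 to 14481843 counts, the lowest in wild-type replicate 2, whose variance against the other wild-type libraries was 2.28 and 2.30 times the sampling noise where other pairs within a group lay between 1.56 and 1.71. Pearson's r across genes was 0.9950 to 0.9960 within a group and 0.9863 to 0.9878 between groups. Tet2, the check of the labels, was not lower under the knockout label: its level was 33.7 ± 0.80 CPM under the knockout label and 29.3 ± 1.41 CPM under the wild-type label (SD, n = 3 each; log2 change 0.20; edgeR adjusted p = 0.0159). A count over the whole gene cannot show a partial deletion, and every direction below is that of the label. CPM is the count scaled to the library's TMM-adjusted total, and a log2 change is the knockout label minus the wild-type label. Nothing in the labels ties the replicates to different animals or cultures. The p-values therefore reflect how much these libraries varied, which may be technical variation. Mitochondrially encoded genes took 0.349% to 0.366% of counts under the knockout label and 0.240% to 0.275% under the wild-type label.

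All 7 macrophage markers were detected, with a summed level of 5704 to 5978 CPM under the knockout label and 5444 to 5818 CPM under the wild-type label. Adgre1, Csf1r, Mertk and Fcgr1 rose, Cd68 and Lyz2 fell, and Itgam had a log2 change of -0.02. The libraries also held fibroblast transcripts: all 8 markers were detected, summing to 6651 to 6814 CPM under the knockout label and 6955 to 7433 CPM under the wild-type label, ranges that did not overlap. Col1a1, Col1a2, Dcn and Postn fell and Col3a1 rose. Adipocyte markers were at 0 in all 3 knockout-labelled libraries and at most 0.0825 CPM in sum under the wild-type label, with Adipoq, Cidec, Lep and Cidea at 0 throughout. The summed T cell markers were 11.5 to 12.6 CPM under the knockout label and 3.47 to 3.96 CPM under the wild-type label, nearly all of it Cd4, with Cd3d at 0. Dendritic cell markers summed to 5.40 to 6.89 CPM under the knockout label and 3.27 to 4.89 CPM under the wild-type label (Siglech at 0). Most of that difference was Xcr1, with means of 3.60 and 1.71 CPM, while Zbtb46 averaged 2.26 and 2.12 CPM and did not pass. Neutrophil markers summed to 1.49 to 1.97 CPM under the knockout label and 1.14 to 1.40 CPM under the wild-type label (Ly6g at 0). B cell markers summed to 0.303 to 1.12 CPM under the knockout label and 0 to 0.248 CPM under the wild-type label, and mast cell and basophil markers to 0.213 to 0.454 CPM and 0.216 to 0.497 CPM, with Fcer1a and Mcpt4 at 0. The part of these cell types in the changes below was not tested, and in bulk RNA fewer cells of a type cannot be told apart from less RNA per cell.

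Genes of sterol and of fatty acid synthesis were mostly higher in the libraries labelled Tet2 knockout, by modest amounts. Of the 34 members, all of which passed the filter on low counts, 26 rose and 0 fell at an edgeR adjusted p of 0.05, where 21.6% of the 13175 tested genes rose and 19.2% fell. DESeq2 and limma-voom also called 0 members lower. At an unadjusted edgeR p of 0.05, 26 members were higher and 2, Srebf1 and Npc2, were lower, where 24.5% of tested genes were higher and 22.8% lower. The 26 members rose by 1.06-fold to 2.08-fold with a median of 1.35-fold, and in each of them the 3 knockout-labelled libraries lay above the 3 wild-type-labelled ones. Groups did not overlap in 27 members, all higher, where 24.8% of tested genes were higher without overlap and 47.8% had no overlap in either direction. The median log2 change was 0.35 over the 34 members and -0.0031 over all tested genes, whose lower and upper quartiles were -0.16 and 0.18. The log2 change was above 0 in 31 members, where 49.5% of tested genes were above 0. A fold of at least 1.5 was reached by 9 members (26.5%), namely Acat2, Idi1, Fdps, Cyp51, Msmo1, Srebf2, Insig1, Stard4 and Acss2, and by 5.97% of tested genes.

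**Figure D1:**
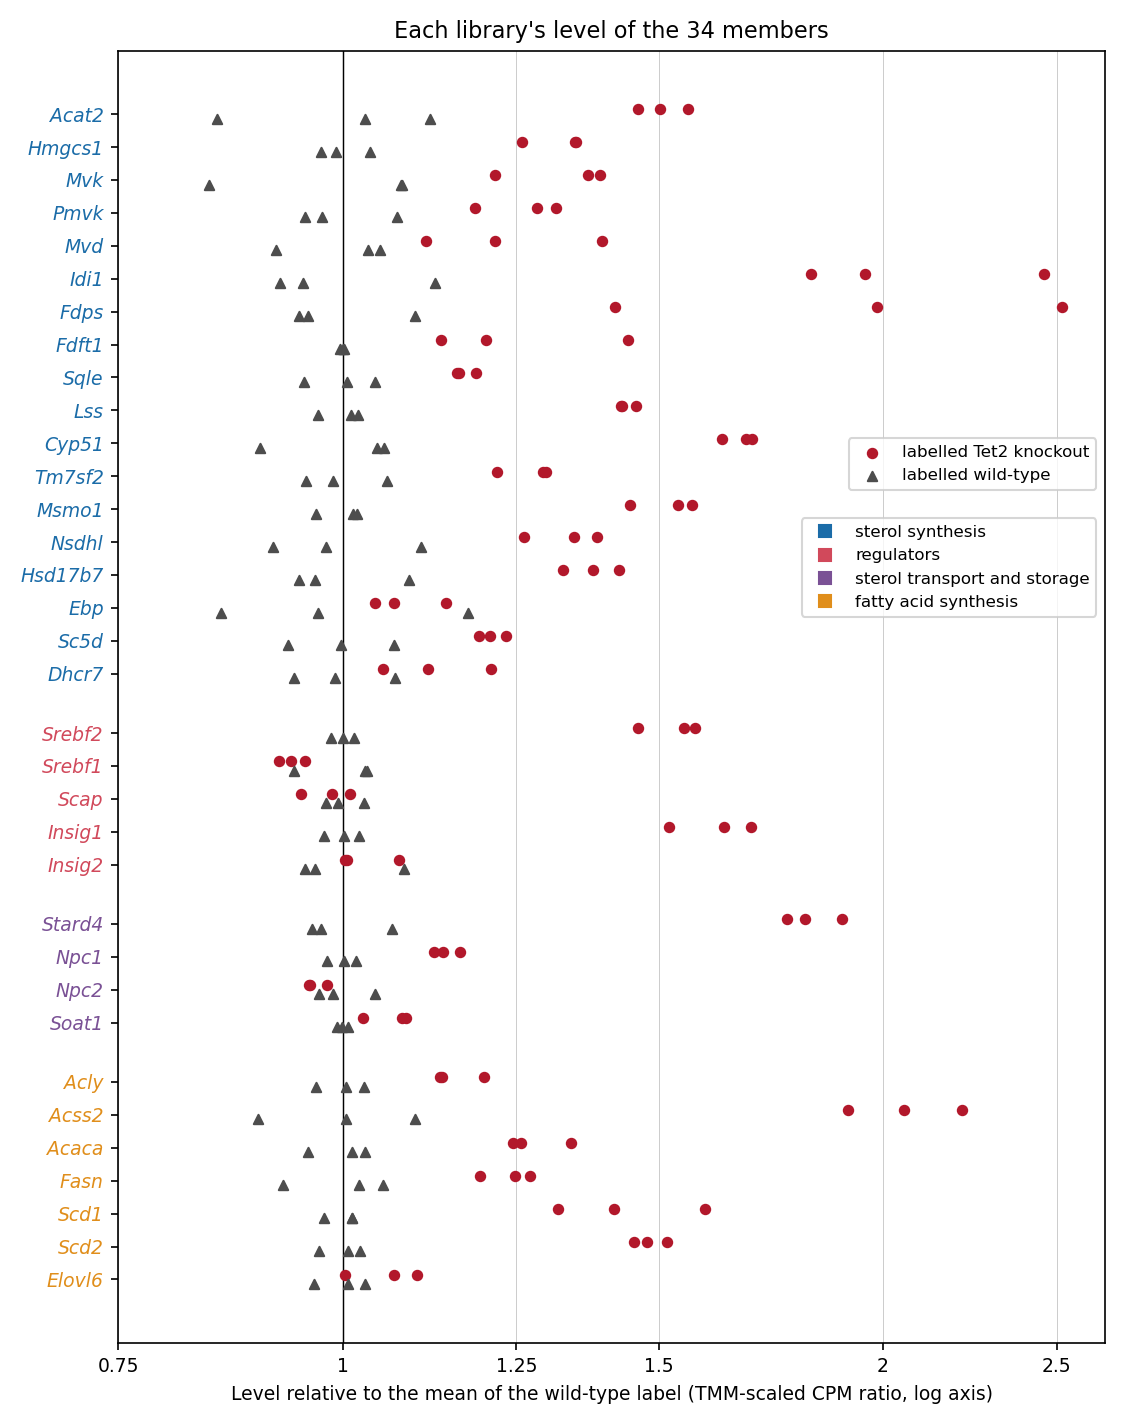
Level of each member in each library relative to the mean of the 3 wild-type-labelled libraries (TMM-scaled CPM ratio, log axis), with circles for the knockout label, triangles for the wild-type label and name colours for the arm. Circles lie wholly to the right of triangles in 27 of 34 members and mix with them in the other 7, among them Srebf1, Scap, Insig2 and Npc2.

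The regulators split between the sterol and the fatty acid factor. Srebf2 (SREBP-2) stood at 173, 161 and 170.3 CPM in the libraries labelled knockout, against 111, 108 and 109.9 CPM in those labelled wild-type. The lowest knockout-labelled library was well above the highest wild-type-labelled one. Srebf2 rose by a log2 change of 0.61 (SE 0.04; edgeR adjusted p = 1.78e-28). Srebf1 (SREBP-1) stood at 75.4, 74.3 and 76.8 CPM under the knockout label, against 75.7, 83.2 and 82.9 CPM under the wild-type label. The groups overlapped through wild-type replicate 1, and Srebf1 did not pass (log2 change -0.09, 95% interval -0.19 to -0.00075; edgeR adjusted p = 0.103).

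The Insig genes encode proteins that hold the SREBP precursors back, and Insig1 is itself a known target of SREBP while Insig2 is not driven by it in the same way. Insig1 stood at 61.1, 67.8 and 65.5 CPM under the knockout label, against 39.2, 40.3 and 41.1 CPM under the wild-type label, with no overlap. Its log2 change was 0.69 (SE 0.06; edgeR adjusted p = 1.98e-20). Insig2 stood at 33.6, 35.9 and 33.5 CPM under the knockout label, against 36.2, 32.3 and 31.9 CPM under the wild-type label, and the groups overlapped (log2 change 0.04, 95% interval -0.10 to 0.17; edgeR adjusted p = 0.698). Scap, the escort of the precursors, stood at 54.2, 57.7 and 56.4 CPM under the knockout label, against 58.7, 56.8 and 55.9 CPM under the wild-type label. The groups overlapped here too, with a log2 change of -0.03 (95% interval -0.13 to 0.08; edgeR adjusted p = 0.727).

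Within a library, levels of paralogs can be set against each other per kilobase of gene length. The level of Srebf2 was 1.80, 1.69 and 1.74 times that of Srebf1 in the libraries labelled knockout, against 1.15, 1.02 and 1.04 times in those labelled wild-type. The level of Insig1 was 2.04, 2.12 and 2.20 times that of Insig2 under the knockout label, against 1.22, 1.40 and 1.45 times under the wild-type label. For both ratios the groups did not overlap and the exact two-sided permutation test gave p = 0.1, the smallest that 3 against 3 allows. The ratio of the stearoyl-CoA desaturase gene Scd2 to its paralog Scd1 was 4.72 ± 0.496 under the knockout label and 4.57 ± 0.168 under the wild-type label (SD, n = 3 each; exact two-sided permutation p = 0.7), with overlapping groups. Adjusted over these 3 ratios by the Benjamini-Hochberg method, the exact permutation p was 0.15 for Srebf2 to Srebf1 and for Insig1 to Insig2 and 0.7 for Scd2 to Scd1.

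Most enzymes of sterol synthesis rose. Of 18 enzymes 15 rose and 0 fell (edgeR), where 21.6% of tested genes rose and 19.2% fell. At an unadjusted edgeR p of 0.05, 0 were lower, where 22.8% of tested genes were. The median log2 change was 0.41, with a range of 0.13 to 1.06. Groups did not overlap in 16 of 18, all higher, where 24.8% of tested genes were higher without overlap and 47.8% had no overlap in either direction. All 7 enzymes from acetyl-CoA to farnesyl diphosphate rose, with a median of 0.41. The 3 that make and cyclise squalene (Fdft1, Sqle and Lss) also rose, with a median of 0.34. Of the 8 that turn lanosterol into cholesterol 5 rose, with a median of 0.38 over the 8.

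**Figure D2:**
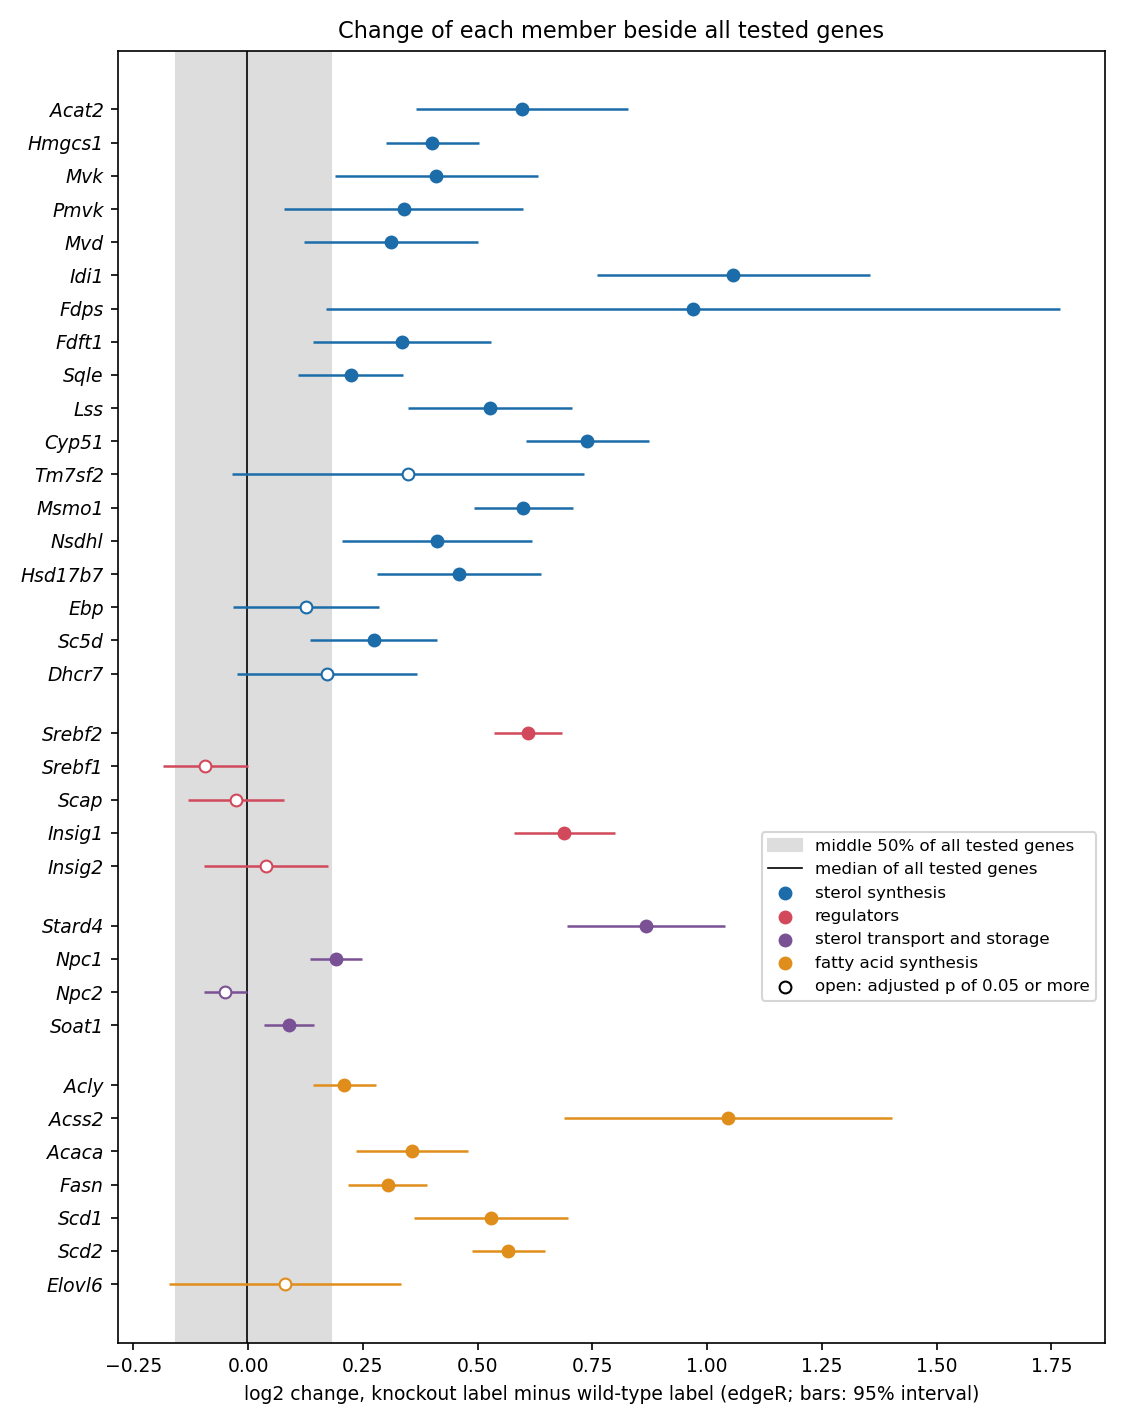
Log2 change of each member, knockout label minus wild-type label, with its 95% interval from the edgeR fit, ordered by arm. Idi1 (1.06), Acss2 (1.05) and Fdps (0.97) had the highest changes, and the interval of Fdps was the widest.

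Early enzymes included the member with the highest log2 change. Acat2, which condenses acetyl-CoA, stood at 12.7, 13.1 and 13.5 CPM under the knockout label, against 8.95, 9.74 and 7.41 CPM under the wild-type label, without overlap (log2 change 0.60, SE 0.12; edgeR adjusted p = 9.74e-06). Hmgcs1, the HMG-CoA synthase whose promoter is printed above, stood at 72.6, 72.7 and 67.8 CPM under the knockout label, against 53.4, 55.8 and 52.4 CPM under the wild-type label. The spread within each group was small against the gap (log2 change 0.40, SE 0.05; edgeR adjusted p = 5.81e-11). Idi1, which isomerises isopentenyl diphosphate, stood at 8.42, 9.02 and 11.4 CPM under the knockout label, against 4.26, 5.20 and 4.39 CPM under the wild-type label. Knockout replicate 3 was the highest, the groups did not overlap, and Idi1 rose 2.08-fold (log2 change 1.06, SE 0.15; edgeR adjusted p = 2.24e-09).

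The 3 enzymes that carry mevalonate to isopentenyl diphosphate rose by similar amounts. The mevalonate kinase gene Mvk averaged 13.7 ± 0.986 CPM under the knockout label and 10.3 ± 1.41 CPM under the wild-type label (log2 change 0.41). Pmvk, the next kinase, averaged 9.22 ± 0.494 CPM and 7.31 ± 0.467 CPM under those labels (log2 change 0.34; edgeR adjusted p = 0.02998), a call that was lost in 7 of 15 alternatives, among them leaving out knockout replicate 1 (edgeR adjusted p = 0.0995) or 3 (0.0690) or wild-type replicate 1 (0.1001) or 3 (0.0807). Mvd, the decarboxylase, averaged 18.4 ± 2.13 CPM under the knockout label and 14.8 ± 1.06 CPM under the wild-type label (log2 change 0.31; SD, n = 3 for each of these), and without knockout replicate 1 it did not pass (edgeR adjusted p = 0.111). Fdps, the farnesyl diphosphate synthase, had only 17, 12 and 20 counts under the knockout label and 8, 8 and 8 counts under the wild-type label. Its log2 change of 0.97 (SE 0.40; edgeR adjusted p = 0.0453) was lost in 10 of the 14 alternatives that tested it, among them leaving out knockout replicate 1 (edgeR adjusted p = 0.0990) or 3 (0.203) or wild-type replicate 1 (0.116), 2 (0.0680) or 3 (0.112). In the GENCODE M21 annotation 26.7% of its exonic bases are shared with Gm43738, a gene on the same strand with 0 counts, so the level of Fdps is uncertain.

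Squalene is made by Fdft1, which stood at 20.3, 16.9 and 16.0 CPM under the knockout label, against 14.1, 14.03 and 14.1 CPM under the wild-type label. The rise (log2 change 0.34; edgeR adjusted p = 0.00317) leaned on knockout replicate 1, without which it did not pass (edgeR adjusted p = 0.0990). Fdft1 shares 18.3% of its exonic bases with Ctsb, a cathepsin gene on the other strand with a mean count of 155977, and the sources used here do not give the strand setting of the counting, so its value is uncertain. Sqle, the squalene epoxidase, stood at 50.2, 51.4 and 50.3 CPM under the knockout label, against 43.6, 41.3 and 45.2 CPM under the wild-type label (log2 change 0.22, SE 0.06; edgeR adjusted p = 0.000883). Lss, which closes the ring to lanosterol, stood at 21.2, 21.2 and 21.6 CPM under the knockout label, against 14.4, 15.1 and 14.96 CPM under the wild-type label, without overlap (log2 change 0.53, SE 0.09; edgeR adjusted p = 5.39e-07).

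After lanosterol, the demethylation enzymes moved most. Cyp51, the lanosterol 14-alpha demethylase, stood at 43.4, 45.1 and 44.8 CPM under the knockout label, against 24.0, 28.1 and 27.9 CPM under the wild-type label (log2 change 0.74, SE 0.07; edgeR adjusted p = 1.62e-17). Msmo1, the C4-methyl sterol oxidase, stood at 66.7, 67.8 and 62.7 CPM under the knockout label, against 44.2, 41.9 and 43.9 CPM under the wild-type label (log2 change 0.60, SE 0.05; edgeR adjusted p = 1.21e-17). In both genes every knockout-labelled library lay above every wild-type-labelled one. The other enzymes of C4 demethylation rose less: Nsdhl averaged 15.5 ± 0.735 CPM under the knockout label and 11.6 ± 1.13 CPM under the wild-type label (log2 change 0.41), and Hsd17b7 averaged 21.2 ± 0.764 CPM and 15.4 ± 1.19 CPM (log2 change 0.46). Sc5d, the C5 desaturase of a late step, averaged 34.8 ± 0.603 CPM under the knockout label and 28.7 ± 1.95 CPM under the wild-type label (log2 change 0.27; edgeR adjusted p = 0.000715).

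The 3 sterol enzymes that did not pass all act after lanosterol, a position that depends in part on the threshold. Ebp and Dhcr7 had smaller log2 changes than any sterol enzyme that passed. Tm7sf2 had a larger one than Sqle (0.22) and Sc5d (0.27), which passed. Ebp, the sterol isomerase, stood at 28.6, 26.1 and 26.7 CPM under the knockout label, against 21.4, 29.4 and 24.2 CPM under the wild-type label, where replicate 2 was the highest of all 6 libraries. Its log2 change was 0.13 (95% interval -0.03 to 0.29; edgeR adjusted p = 0.217), and leaving out wild-type replicate 2 gave 0.24, which passed (edgeR adjusted p = 0.0137). Dhcr7, which makes cholesterol from 7-dehydrocholesterol, stood at 15.8, 17.1 and 14.9 CPM under the knockout label, against 15.1, 14.03 and 13.3 CPM under the wild-type label, with overlap (log2 change 0.17, 95% interval -0.02 to 0.37; edgeR adjusted p = 0.163). Tm7sf2, a C14 sterol reductase, stood at 4.35, 4.33 and 4.09 CPM under the knockout label, against 3.20, 3.55 and 3.31 CPM under the wild-type label. The groups of Tm7sf2 did not overlap, and at this low level its log2 change of 0.35 had a 95% interval of -0.04 to 0.73 (edgeR adjusted p = 0.147).

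Most genes of fatty acid synthesis rose as well. Of 7 enzymes 6 rose and 0 fell (edgeR), where 21.6% of tested genes rose and 19.2% fell. At an unadjusted edgeR p of 0.05, 0 were lower, where 22.8% of tested genes were. The median log2 change was 0.36. Groups did not overlap in the same 6, where 24.8% of tested genes were higher without overlap and 47.8% had no overlap in either direction. Acetyl-CoA is supplied by Acly, from citrate, and by Acss2, from acetate. Acly stood at 199, 188 and 188 CPM under the knockout label, against 170.4, 167 and 160.3 CPM under the wild-type label (log2 change 0.21, SE 0.03; edgeR adjusted p = 1.54e-07). Acss2 stood at 5.75, 6.18 and 6.66 CPM under the knockout label, against 2.70, 3.30 and 3.02 CPM under the wild-type label. Its groups were far apart for its level, and it rose 2.06-fold (log2 change 1.05, SE 0.18; edgeR adjusted p = 6.08e-07). Acss2 shares 9.12% of its exonic bases with other genes: Gss and Ggt7, whose log2 changes were -0.05 and 0.00088 and did not pass, and the antisense gene Acss2os, which had 0 counts.

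Acaca, the acetyl-CoA carboxylase that commits carbon to fatty acids, stood at 49.1, 45.6 and 46.1 CPM under the knockout label, against 35.1, 37.1 and 37.8 CPM under the wild-type label (log2 change 0.36, SE 0.06; edgeR adjusted p = 5.53e-07). Fasn, the fatty acid synthase, stood at 106, 102 and 108 CPM under the knockout label, against 89.7, 79.0 and 87.0 CPM under the wild-type label (log2 change 0.30, SE 0.04; edgeR adjusted p = 3.76e-09). Neither gene's groups overlapped. The desaturase genes, which put the first double bond into stearate and palmitate, followed the same direction. Scd2 stood at 134, 132 and 138 CPM under the knockout label, against 91.3, 88.0 and 92.7 CPM under the wild-type label (log2 change 0.57, SE 0.04; edgeR adjusted p = 3.13e-24). Scd1 stood at 23.2, 28.1 and 24.97 CPM under the knockout label, against 17.2, 17.8 and 17.8 CPM under the wild-type label (log2 change 0.53, SE 0.08; edgeR adjusted p = 9.17e-08). Elovl6, which elongates palmitate, stood at 9.19, 8.38 and 8.93 CPM under the knockout label, against 8.60, 8.42 and 8.06 CPM under the wild-type label. Its groups overlapped (log2 change 0.08, 95% interval -0.17 to 0.33; edgeR adjusted p = 0.660). Elovl6 lies 3.83 Mb from Tet2 on chromosome 3.

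Genes that move or store sterols showed the highest change in the gene that shuttles free cholesterol and little in those of the lysosome. Of 4 genes 3 rose and 0 fell (edgeR), where 21.6% of tested genes rose and 19.2% fell. The median log2 change of the 4 was 0.14. Stard4, a cytosolic cholesterol carrier known as a target of SREBP-2, stood at 27.0, 25.8 and 25.2 CPM under the knockout label, against 13.9, 13.7 and 15.2 CPM under the wild-type label. It rose 1.82-fold without overlap (log2 change 0.87, SE 0.09; edgeR adjusted p = 2.24e-15). Npc1 and Npc2 export cholesterol from lysosomes. Npc1 stood at 317, 324 and 314 CPM under the knockout label, against 279.6, 273 and 284 CPM under the wild-type label (log2 change 0.19, SE 0.03; edgeR adjusted p = 1.81e-08). In GENCODE M21, where its coordinates differ from those of the deposited counts, Npc1 shares 5.31% of its exonic bases with other genes. Most of these are shared with Rmc1 on the other strand, which also rose (log2 change 0.21). The part of Rmc1 in the change of Npc1 was not tested. Npc2 stood at 1122, 1098 and 1096 CPM under the knockout label, against 1131, 1193 and 1109.9 CPM under the wild-type label, and the groups overlapped (log2 change -0.05, 95% interval -0.10 to -0.0032; edgeR adjusted p = 0.0813). Soat1, which esterifies cholesterol for storage in droplets, stood at 421, 443 and 445 CPM under the knockout label, against 409.8, 413 and 408 CPM under the wild-type label. The groups did not overlap but the rise was 1.06-fold (log2 change 0.09, SE 0.03; edgeR adjusted p = 0.00483).

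Summed over its genes, the sterol arm held 462, 457 and 447 CPM in the libraries labelled knockout, against 337, 344 and 341 CPM in those labelled wild-type, a ratio of means of 1.33. The fatty acid arm held 526, 509.6 and 521 CPM under the knockout label, against 415, 400.3 and 407 CPM under the wild-type label, a ratio of 1.27. These 2 arms thus differed from their wild-type-labelled sums by similar shares, and the difference between the arms was not tested. The regulators summed to 399 ± 3.41 CPM under the knockout label and 321 ± 0.456 CPM under the wild-type label, carried by Srebf2 and Insig1. The transport and storage genes summed to 1886 ± 6.19 CPM under the knockout label and 1848 ± 39.9 CPM under the wild-type label (SD, n = 3 each), with overlapping groups, a sum that is mostly Npc2.

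**Figure D3:**
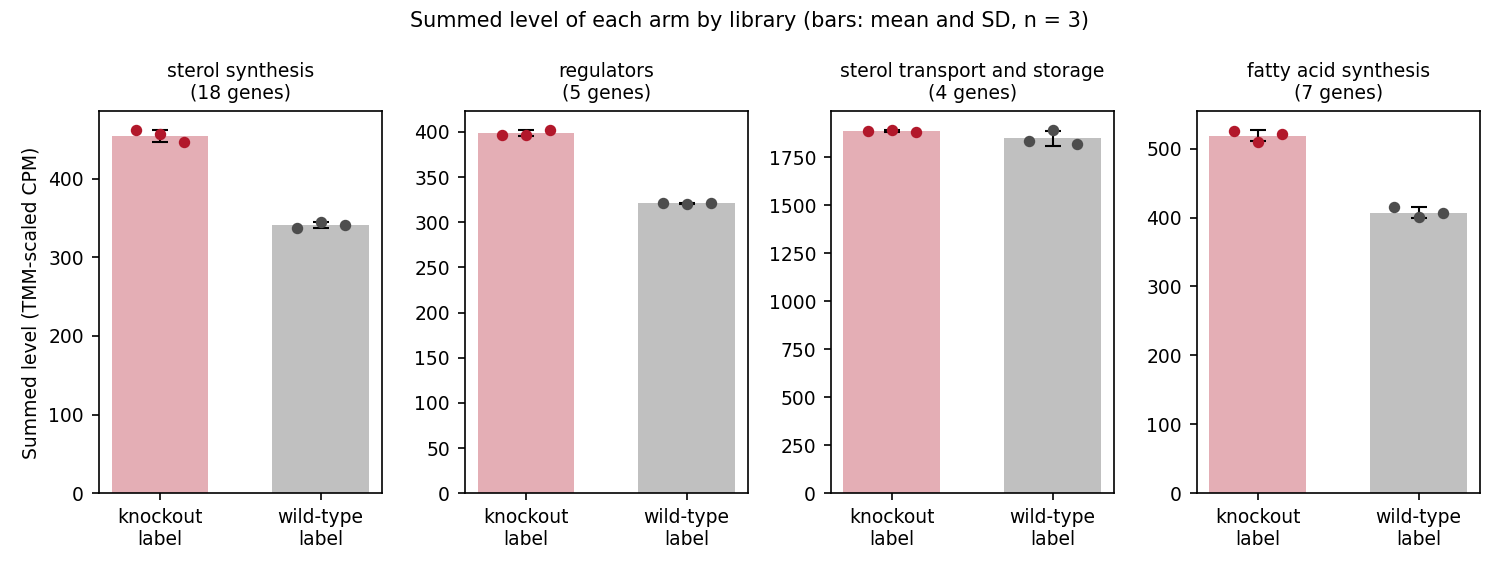
Summed level of the genes of each arm in each library (TMM-scaled CPM, axes from 0), knockout label left and wild-type label right, with bars at the group mean and their SD over 3 libraries. The knockout-labelled libraries lie above the wild-type-labelled ones in the sterol, regulator and fatty acid arms and overlap them in the transport and storage arm.

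Per kilobase of gene length, levels differed widely among members. Npc2 had the highest level, 203 CPM per kb under the knockout label and 210.5 CPM per kb under the wild-type label. Soat1 (44.6 and 41.9), Acly (36.3 and 31.4) and Npc1 (29.7 and 26.0) followed in CPM per kb under the knockout and the wild-type label. Among the sterol enzymes Hmgcs1 had the highest level, 15.5 CPM per kb under the knockout label and 11.7 CPM per kb under the wild-type label. Fdps (0.282 and 0.143), Acss2 (0.610 and 0.296) and Tm7sf2 (0.761 and 0.599) had the lowest levels in CPM per kb under the knockout and the wild-type label.

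**Figure D4:**
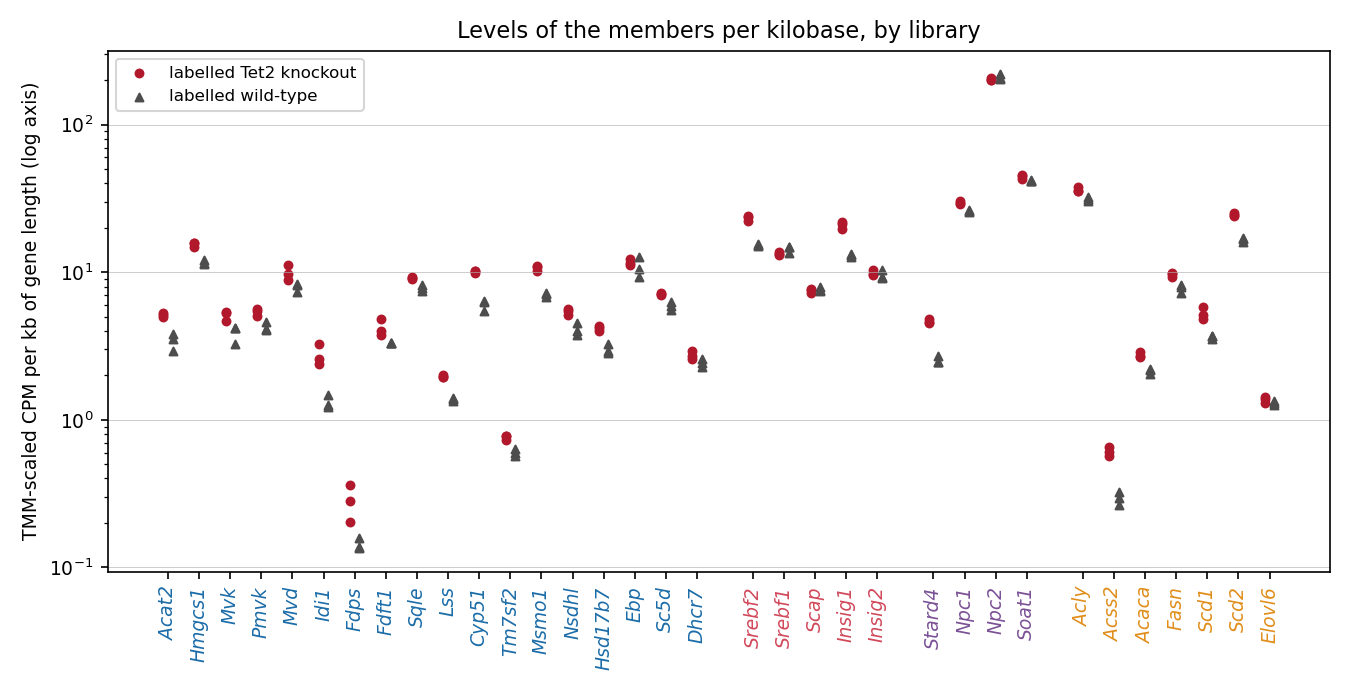
Level of each member per kilobase of gene length in each library (TMM-scaled CPM per kb, log axis), circles for the knockout label and triangles for the wild-type label. Npc2 is highest, at 203 CPM per kb under the knockout label, and Fdps is lowest, at 0.282 CPM per kb.

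**Figure D5:**
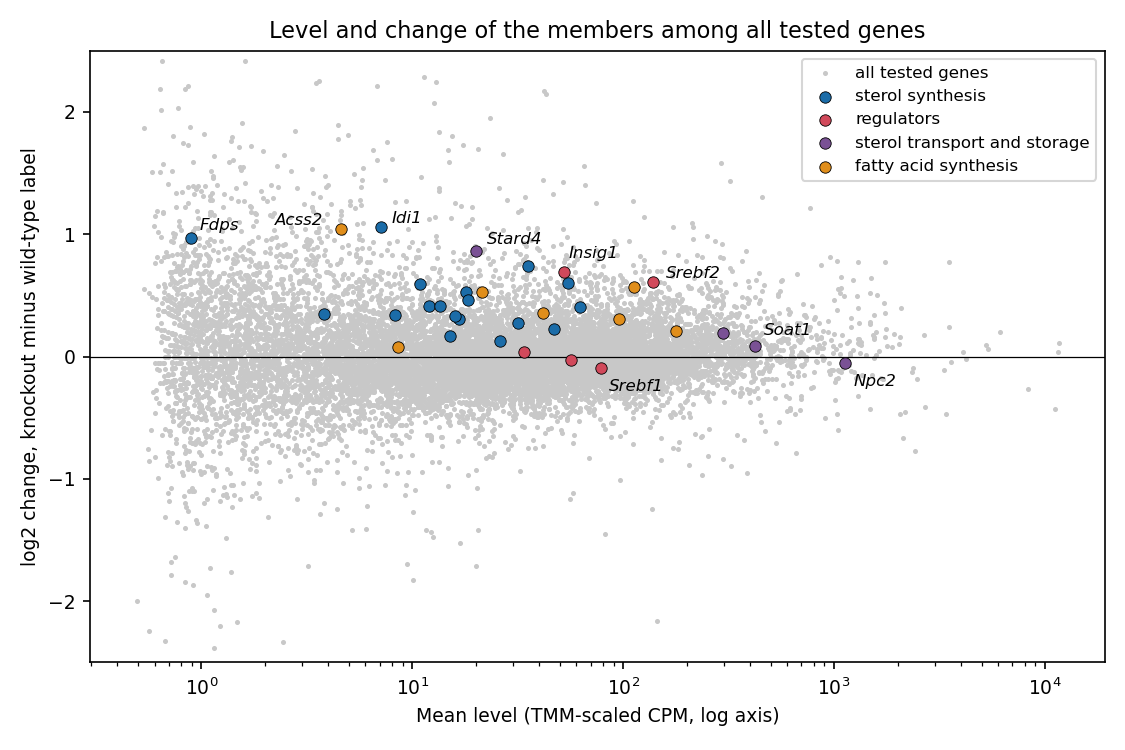
Log2 change, knockout label minus wild-type label, against the mean level over both groups (TMM-scaled CPM, log axis) for all tested genes (grey) and the members (coloured by arm), with 21 genes beyond 2.5 on the log2 axis not drawn. The members lie mostly above 0 at levels from about that of Fdps to that of Npc1 (log2 change 0.19). Soat1 and Npc2, the most abundant, lie close to 0.

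Genes of adjoining pathways moved in both directions. Of 51 tested genes in 5 further lists 15 rose and 9 fell, with a median log2 change of 0.04. Of all tested genes 21.6% rose and 19.2% fell, with 40.9% passing in either direction. In the isoprenoid branch, which uses farnesyl diphosphate for protein prenylation, dolichol and ubiquinone, 1 of 11 genes rose (Fnta, a prenyltransferase subunit, log2 change 0.15) and 3 fell. These were Coq2, of ubiquinone synthesis (-0.42, SE 0.07; edgeR adjusted p = 3.94e-07), Rabggtb, a Rab prenyltransferase subunit (-0.28), and Nus1, of dolichol synthesis (-0.15), and the median of the list was -0.15.

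Among 9 genes that process SREBP or sense sterols, 3 rose, with a median log2 change of 0.03. Over all tested genes 21.6% rose and 19.2% fell. Erlin1, an endoplasmic reticulum protein that restrains SREBP, rose by 0.34 (edgeR adjusted p = 1.16e-07) and the ubiquitin ligase genes Rnf145 and Rnf139 by 0.32 and 0.19 on the log2 scale. The protease genes Mbtps1 and Mbtps2, which cleave SREBP, had log2 changes of 0.08 and -0.08 and did not pass. Of 7 tested sterol carriers, Gramd1a rose (0.26) and Gramd1b fell (-0.24), both encoding proteins that move sterol from the plasma membrane, and the other 5 did not pass.

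Fatty acid elongation and desaturation genes rose in 6 of 12 tested cases and fell in 2, with a median log2 change of 0.20. Over all tested genes 21.6% rose and 19.2% fell. Hsd17b12, the ketoacyl reductase of elongation, averaged 204 ± 2.73 CPM under the knockout label and 161 ± 2.14 CPM under the wild-type label (SD, n = 3 each; log2 change 0.35; edgeR adjusted p = 3.14e-16). Fads1, the delta-5 desaturase, rose by 0.45 and Tecr, which completes each elongation cycle, by 0.31 on the log2 scale. Fads3 and Hacd1 fell by 0.24 and 0.43. Of 12 tested genes that supply or activate fatty acids 4 rose and 2 fell, with a median log2 change of -0.03. These counts stand beside the same shares of all tested genes. Acsl1, an acyl-CoA synthetase, averaged 384 ± 2.43 CPM under the knockout label and 202 ± 14.7 CPM under the wild-type label (log2 change 0.92; edgeR adjusted p = 1.17e-41). Its paralog Acsl5 rose by 0.22 and Mid1ip1, a partner of acetyl-CoA carboxylase, fell by 0.25 on the log2 scale.

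Libraries of a group varied little beyond counting noise: edgeR's common estimate of the coefficient of variation beyond that noise was 2.63%. When a coefficient of 0.1 was assumed in its place, 16 of the 34 members rose, 9 sterol enzymes, Srebf2 and Insig1, Stard4 and 4 fatty acid enzymes, where 9.28% of tested genes rose, and 0 members fell, where 5.03% of tested genes did. Over all 15 alternatives 16 of the 26 members kept their call, and 22 kept it in all but the assumed spread.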

How the data were processed

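Total RNA was purified on RNeasy Plus columns and turned into NEBNext Ultra libraries, per the labels' protocols. Reads were handled with fastp, STAR and featureCounts on mm10, per the submitters' processing notes, which give no versions. The authors deposited raw counts per gene. Gene lengths in bases are the authors', per the file headers. The sources used here give neither the annotation release nor the strand setting.

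Genes were kept by filterByExpr (minimum count 10; 13175 of 54532 genes), scaled by TMM and compared with edgeR 4.0.16's robust quasi-likelihood test in R 4.3.3, genotype label only. Adjusted p-values are Benjamini-Hochberg values over all tested genes, with a threshold of 0.05. Fits were checked on simulated counts with a spread close to that of these libraries. The check cannot show whether that spread is technical or biological. Members are named in full. Per-library values go to up to 6 members of an arm with the smallest p, up to 2 abundant ones that did not pass and the paralog pairs, with Sqle, Fdft1 and Tm7sf2 added after their values were seen, and up to 3 called genes are named for each further list, with some others added in the same way. A gene that this rule would name is not reported here. The members and lists were chosen with earlier results of these data known. Alternatives were DESeq2 1.42.0, limma-voom (limma 3.58.1), scaling by RLE or by upper quartile, other filters, protein-coding genes only, a replicate block, an assumed spread of 0.1, sums per kilobase and each library left out. Exon sharing comes from GENCODE M21, where 30 of 34 members had the table's coordinates. Figures were drawn with matplotlib 3.10.9.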

Additional observations from a re-analysis of the deposited data

How the results depend on the processing

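No called change was reversed, and 0 sterol and 0 fatty acid enzymes were called lower in any of the 15 alternatives. With a spread of 0.1 assumed, 1885 genes, 9 sterol enzymes, 2 regulators, 1 transport gene and 4 fatty acid enzymes were called (the last 4 counts higher); the members lost only there were Sqle, Sc5d, Npc1, Soat1, Acly and Fasn. With each library left out in turn, 4725 to 5177 genes were called, and 11 (without knockout replicate 1) to 15 sterol enzymes, 2 regulators, 3 transport genes and 6 fatty acid enzymes were higher. Leave-one-out counts of lower calls ran from 0 to 1 for the regulators (Srebf1 without wild-type replicate 1, edgeR adjusted p = 0.0230) and from 0 to 1 for transport (Npc2 without wild-type replicate 3, edgeR adjusted p = 0.0220). With upper-quartile scaling 1 regulator (Srebf1, edgeR adjusted p = 0.0431) and 1 transport gene (Npc2, 0.0151) were called lower, and the log2 ratio of the regulators' sums was 0.29. Per kilobase the log2 ratios of sums were 0.40 for the sterol arm, 0.33 for the regulators and 0.0063 for transport and storage. Upper-quartile scaling shifted the median of all genes by -0.02. The causes were not tested. Deviations of same-numbered libraries from their group means had correlations over all tested genes of 0.0036, -0.0068 and -0.018. Because counting noise can hide a shared part, these values cannot show whether the numbers pair the libraries. With the replicate block 5259 genes and 14 sterol enzymes (higher) were called. Depth limits Fdps, at 8 to 20 counts a library, and Tm7sf2, both with wide intervals.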
